A study of Mus musculus with 6 samples.

Results

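Genes of the tripartite motif (TRIM) family were compared between nuclear transfer embryonic stem (ntES) cells and induced pluripotent stem (iPS) cells of the mouse. Members were the genes whose symbol is Trim followed by a number, read from probe sets that the platform annotation gave to 1 gene only, with the brightest probe set kept where a gene had several. This gave 58 TRIM genes of 19308 named genes, and each of the 58 had exactly 1 such probe set. There were 3 arrays of iPS cells and 3 of ntES cells. All cells came from tail tip fibroblasts of G3 Terc-/- mice, the generation 3 of animals bred without the RNA template of telomerase, so both groups lack Terc and no array of cells with Terc entered. Mouse embryonic fibroblasts stopped with mitomycin C served as feeders, in a medium labelled ESM, and the labels name neither the reprogramming factors of the iPS cells nor the age of the mice. The design text calls the 3 arrays of a group biological repeats of that line, so a p-value here measures spread among such repeats, and with a possible 1 line a group, line and reprogramming method cannot be told apart. Values were log2 signals, and all differences below are ntES minus iPS on that scale.

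TRIM proteins carry a RING finger, B-boxes and a coiled coil, followed by a variable end that sets what they bind, and many are ubiquitin ligases. A large branch with a PRY-SPRY end takes part in antiviral defence and is often induced by interferon. Other branches repress transcription on chromatin, as Trim28 does in pluripotent cells by silencing retroelements, or bind RNA through NHL repeats, as Trim71 does in stem cells. Several mouse TRIM genes of the antiviral branch arose by repeated duplication and lie side by side, so that probe sets of the Trim30 and Trim12 genes may also read close copies.

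The called TRIM genes with the lowest log2 differences were Trim30a and Trim30d, neighbours from that duplicated group, and their promoters are shown first because of what they share. Promoters were taken from RefSeq (GRCm38.p6), from 250 bases before to 50 bases after the annotated start, and 46 of the 58 members had an entry. An element to which interferon-activated factors bind, the ISRE, was searched as GAAANNGAAA on both strands, where its reverse reads TTTCNNTTTC. These letters were in the promoters of 8 of the 46 members (17.4%), against 3.99% of the 27025 genes with an entry and 3.44% of the 32851 promoters. The 8 were Trim2, Trim12a, Trim12c, Trim21, Trim26, Trim30a, Trim30d and Trim34a, several of which are copies of each other and not independent. A match is a description of the letters, not of binding. The STAT element GAS, searched as TTCNNNGAA, was in 5 of the 46 (10.9%, against 9.55% of genes), and the antioxidant response element, searched as TGACNNNGC on both strands, in 5 (10.9%, against 14% of genes). The windows below show 12 bases on either side of the match for the members of the duplicated group, 5′ to 3′ on the gene's strand, with the match in capitals.
Trim30a, chr7:104465208-104465241, minus strand: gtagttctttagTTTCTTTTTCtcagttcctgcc
Trim30a, start further along, chr7:104446102-104446135, minus strand: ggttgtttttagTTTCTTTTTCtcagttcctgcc
Trim30d, chr7:104507869-104507902, minus strand: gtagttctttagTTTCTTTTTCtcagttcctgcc
Trim34a, chr7:104244455-104244488, plus strand: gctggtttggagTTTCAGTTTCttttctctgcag
Trim12a, chr7:104315464-104315497, minus strand: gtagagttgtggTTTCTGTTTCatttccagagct
Trim12c, chr7:104353357-104353390, minus strand: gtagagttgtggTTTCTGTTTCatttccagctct

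The window of Trim30d equalled that of the first Trim30a start in all 34 bases, and the other Trim30a start differed from them in 5. The windows of Trim12a and Trim12c differed in 2 bases. Over their whole promoters, the first Trim30a start and Trim30d had 276 identical positions in the 294 columns of their local alignment (93.9%). Both are printed here as the promoters of the members that fell in the duplicated group.
Trim30a, chr7:104465144-104465443, minus strand: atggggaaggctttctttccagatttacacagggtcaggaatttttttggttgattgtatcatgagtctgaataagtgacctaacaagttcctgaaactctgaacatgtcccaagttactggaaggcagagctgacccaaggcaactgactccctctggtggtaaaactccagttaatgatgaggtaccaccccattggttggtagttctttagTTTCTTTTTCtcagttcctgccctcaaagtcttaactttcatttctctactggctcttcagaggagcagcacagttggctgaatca
Trim30d, chr7:104507800-104508099, minus strand: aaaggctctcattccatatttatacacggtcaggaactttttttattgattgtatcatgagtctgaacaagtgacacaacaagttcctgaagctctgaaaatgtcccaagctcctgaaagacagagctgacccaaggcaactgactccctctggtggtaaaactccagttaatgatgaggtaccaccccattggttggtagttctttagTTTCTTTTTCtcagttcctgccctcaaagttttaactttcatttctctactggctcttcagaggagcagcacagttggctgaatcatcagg

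Of the 58 TRIM genes, 4 passed an adjusted p of 0.05 (6.9%), while 11.3% of all 23344 probe sets did. Trim30a, Trim30d and Trim35 fell in ntES cells (3 members, with 6.13% of all probe sets called lower), and Trim16 rose (1 member, with 5.19% called higher). Trim30a alone also changed at least 2-fold, as did 0.587% of all probe sets. The share of TRIM genes called was thus not above that of the array as a whole. The median size of the difference, sign aside, was 0.12 over the members and 0.12 over all probe sets, and 45 members differed by less than 0.2. At an unadjusted p under 0.05 there were 9 members (15.5%), against 24.6% of all probe sets. The arrays of the groups did not overlap for 12 members (20.7%, against 26.5% of all probe sets), 5 lower and 7 higher in ntES cells.

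**Figure D1:**
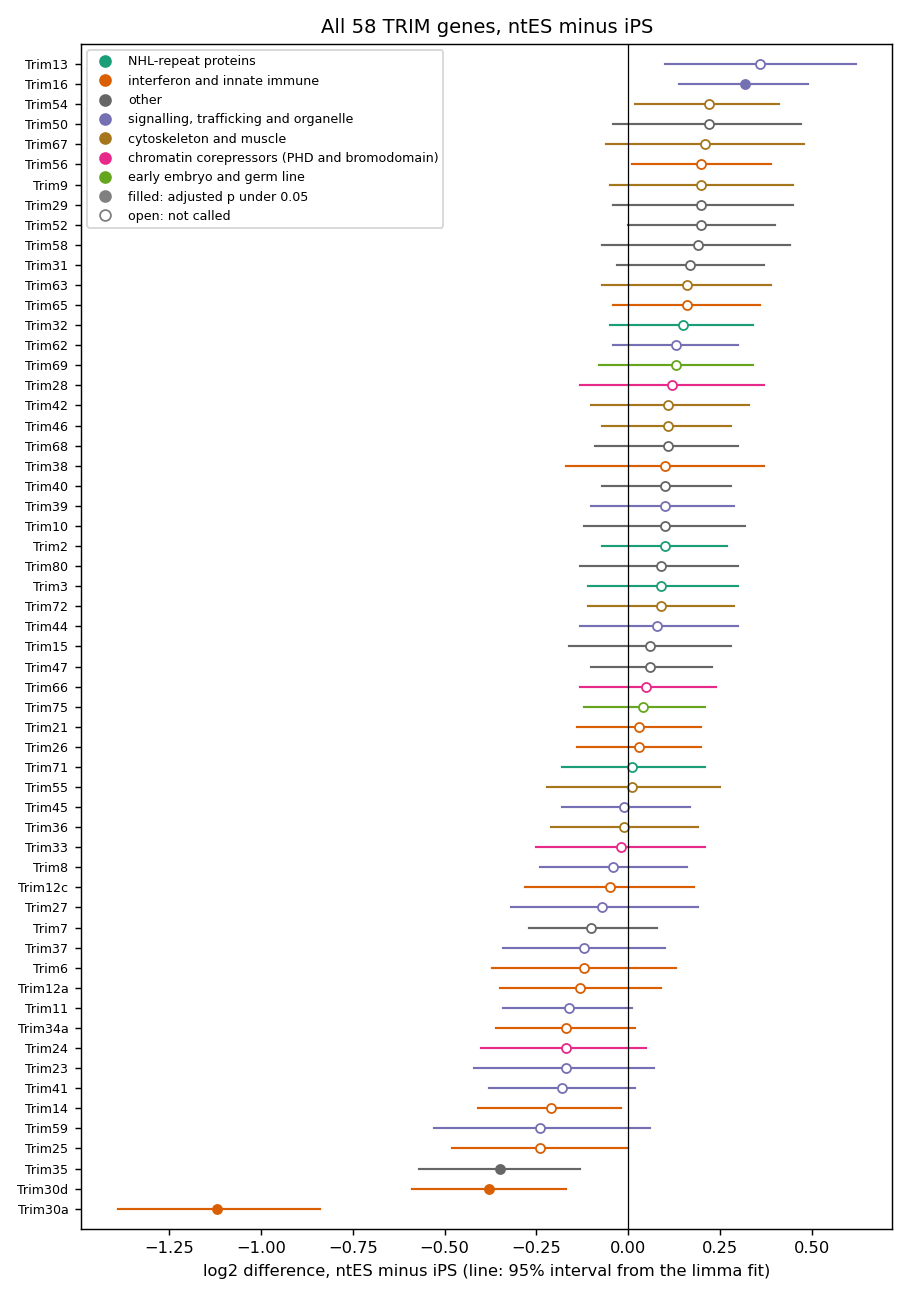
Log2 difference (ntES minus iPS, horizontal axis) of all 58 TRIM genes, 1 gene a row, with the 95% interval from the limma fit and colours for the role groups. Trim30a stands apart at -1.12, and the 4 filled points (Trim30a, Trim30d, Trim35 and Trim16) passed an adjusted p of 0.05.

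Trim30a, an interferon-inducible protein known to restrain Toll-like receptor signalling, had the largest difference of the family. It read 7.74, 7.34 and 7.37 on the iPS arrays and 6.45, 6.48 and 6.17 on the ntES arrays. Every iPS array was above every ntES array, by more than the range within either group. The mean fell from 7.48 ± 0.22 to 6.37 ± 0.17 (SD, n = 3 each), a difference of -1.12 ± 0.12 (SE) or 2.17-fold, with an adjusted p of 0.000406 (limma). Of 15 alternative settings, 14 kept the call, with differences from -1.21 to -0.99, and the unmoderated test did not (adjusted p = 0.0568).

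Trim30d, its close copy, fell as well. Its probe set read 6.56, 6.52 and 6.28 in iPS cells and 6.01, 6.09 and 6.12 in ntES cells. The groups did not overlap, though iPS replicate 3 lay nearer to the ntES arrays than the other iPS arrays did. The difference was -0.38 ± 0.09 (SE, n = 3 each; adjusted p = 0.0277, limma). Settings that ended the call included leaving out iPS replicate 1 or 2 (adjusted p = 0.147 and 0.152) or ntES replicate 2 (0.12), and the unmoderated test (0.143). Trim30d had the lowest mean signal of the 58 members (6.26), and the filter on dim probe sets removed it. Of its 14 remaining alternatives, 9 kept the call. On average Trim30a and Trim30d were dimmer than the median probe set (7.66). There, background left in the signal can make a log2 difference smaller than the change in RNA. That background was not measured, so the differences of Trim30a and Trim30d do not order their changes in RNA.

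**Figure D2:**
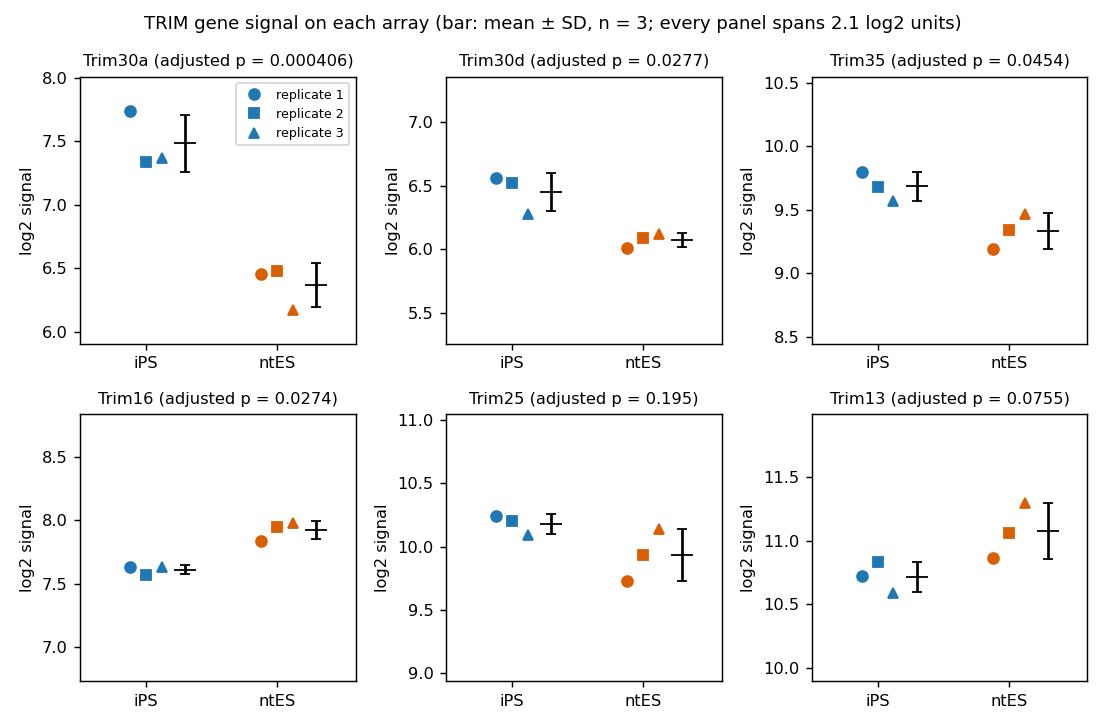
Log2 signal on each array for the 4 called TRIM genes and for Trim25 and Trim13, with the mean ± SD of 3 arrays beside the points and the same span of log2 units in every panel. The iPS and ntES arrays do not overlap for Trim30a, Trim30d, Trim35, Trim16 and Trim13, and they overlap for Trim25.

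In GRCm38.p6 gene order, 6 measured TRIM genes lie without interruption by another measured gene: Trim6, Trim34a, Trim12a, Trim12c, Trim30a and Trim30d. All 6 differences were below 0, also after quantile normalization and after median centring, with a median of -0.15. Without ntES replicate 3, Trim12c was at 0.05. Only Trim30a and Trim30d of the 6 passed the test. Trim34a, an antiviral family member, read 7.11, 7.12 and 7.26 in iPS cells and 7.05, 7.03 and 6.90 in ntES cells. Its groups did not overlap, but its difference of -0.17 ± 0.09 (SE) had an adjusted p of 0.261 (limma). It passed after quantile normalization, at -0.26 (adjusted p = 0.00177), and under no other of the 15 alternatives. The difference of Trim12a was -0.13 (adjusted p = 0.47) and that of Trim12c -0.05 (adjusted p = 0.797). Trim6, a ubiquitin ligase of interferon signalling, differed by -0.12 (adjusted p = 0.566).

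The other 15 measured genes within 10 places of Trim30a, nearly all olfactory receptor genes, showed no fall. Their signal levels were not examined, and a probe set at background cannot show a fall. These values therefore do not tell whether the fall was confined to the TRIM genes. None of the 15 was called by limma or had an unadjusted p under 0.05, their differences ran from -0.02 to 0.19, and 14 lay above 0. After quantile normalization 8 of these 15 lay above 0, so their own direction depended on the scaling.

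**Figure D3:**
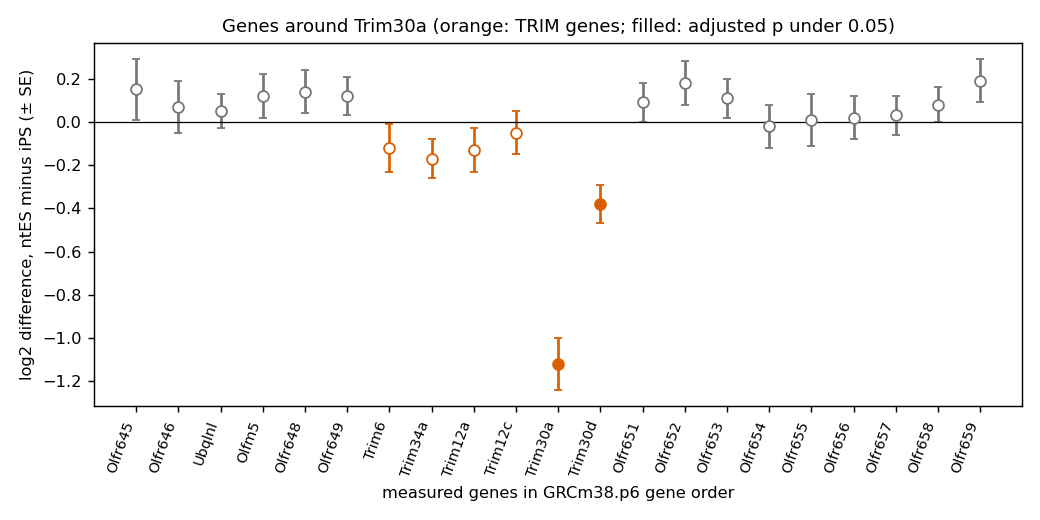
Log2 difference (ntES minus iPS, ± SE) of the 21 measured genes centred on Trim30a, in gene order, with TRIM genes in orange and filled points for an adjusted p under 0.05. The 6 adjacent TRIM genes all lie below 0, with Trim30a at -1.12 and Trim30d at -0.38, while the flanking genes lie between -0.02 and 0.19.

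Of the 17 TRIM genes listed as linked to interferon and innate immunity, 13 were measured. Trim30a and Trim30d fell and none rose (15.4% called, near the 11.3% of all probe sets), and 8 of the 13 lay below 0, with a median of -0.12 against 0.04 over all probe sets. Trim25, a ubiquitin ligase that activates the RNA sensor RIG-I, read 10.24, 10.20 and 10.09 in iPS cells and 9.73, 9.93 and 10.14 in ntES cells. The highest ntES array of Trim25 reached the iPS range, and its difference of -0.24 ± 0.11 (SE) did not pass (adjusted p = 0.195, limma). Trim25 did pass after quantile normalization (-0.19, adjusted p = 0.00876), as it did when ntES replicate 3 was left out (-0.35, adjusted p = 0.0269). Trim14, an adaptor of antiviral signalling, differed by -0.21 ± 0.09 (SE; adjusted p = 0.163) and passed after quantile normalization, at -0.30 (adjusted p = 0.00297).

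Trim21, the cytosolic antibody receptor, differed by 0.03, with a 95% interval from -0.14 to 0.20. Trim26, which acts on the interferon-inducing factor IRF3, also differed by 0.03, with the same interval. Trim21 was lower in ntES cells after quantile normalization (-0.07) and median centring (-0.02), and Trim26 after median centring (-0.03), none of them past the test. Trim56, which supports signalling from cytosolic nucleic acid, read 7.92, 7.90 and 8.07 in iPS cells and 8.12, 8.12 and 8.25 in ntES cells. The arrays of Trim56 did not overlap, and its difference of 0.20 ± 0.09 (SE) did not pass (adjusted p = 0.188). Among the 8 members with the ISRE-like letters, 2 fell (Trim30a and Trim30d) and none rose, with a median of -0.09. These 2 are close copies with the same 34-base window, so they are not independent. Among the 38 members with a promoter entry and no such letters, limma called none (4 at an unadjusted p under 0.05), with a median of 0.10. Over all probe sets 11.3% were called, 6.13% of them all as lower, and 24.6% had an unadjusted p under 0.05. The 12 members without a promoter entry, where no letters were searched, included the remaining 2 called genes, Trim16 and Trim35. Trim21, Trim26 and Trim2 hold the letters and were not called.

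Genes of the interferon response outside the family were read beside them. Of 26 measured, 14 fell and none rose, with a median of -0.53 (53.8% called, against 11.3% of all probe sets), a list whose direction was known from earlier results of these arrays. Irgm1, an interferon-induced GTPase, and Usp18, which removes ISG15 from proteins, changed by -2.08 and -1.72, and Oas2, a sensor of double-stranded RNA, and Rnf213 by -1.35 and -1.33. Of 15 genes of RNA sensing and interferon induction, 2 fell and none rose (13.3% called, near the 11.3% of all probe sets). The 2 were Irf7, which drives interferon transcription, by 0.64 (adjusted p = 0.00368, limma), and the RNA sensor Ifih1 by 0.39 (adjusted p = 0.0338). After quantile normalization 6 of the 15 fell and Mavs rose, with 30.1% of all probe sets called. The RIG-I gene Ddx58, the partner of Trim25, differed by -0.31 (adjusted p = 0.077), a gene named after its values were seen. Of 19 interferon response genes with a promoter entry, 8 (42.1%) held the ISRE-like letters. Of these 8, 4 fell, and of the 11 without them 6 fell.

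Markers of other cells were set beside these values. Of 13 immune cell markers, 2 rose and none fell (15.4% called, against 11.3% of all probe sets). Lyz2, the lysozyme gene, rose by 1.19 and Cd3e by 0.50. After quantile normalization 5 of the 13 rose and Cd68 fell, with 30.1% of all probe sets called. The pan-leukocyte marker Ptprc read 6.16 to 6.32 in iPS and 6.32 to 6.51 in ntES cells. The mean level of the immune list lay between 6.77 and 6.84 on the iPS arrays and between 6.98 and 7.10 on the ntES arrays. Only 2 of the 13 read at or above the median probe set. The part of immune cells in the TRIM differences was not tested. Of 26 fibroblast and feeder markers, 9 rose (38.5% called in either direction), among them Timp3 by 0.89, Ccn2 by 0.77, Postn by 0.74 and Ccn1 by 0.63. Thy1, the only marker of the 26 that fell, was at -0.60. Their mean level lay between 9.63 and 9.92 in iPS and between 9.89 and 10.16 in ntES cells, and the part of feeder RNA in the TRIM differences was not tested. In such bulk samples, fewer cells of a type and less RNA per cell cannot be told apart. The 12 pluripotency markers all read above the median probe set, with a mean level of 10.84 to 11.27 over the 6 arrays. Of these 12, Esrrb and Zfp42 fell, by 0.79 and 0.49. After quantile normalization 7 of the 12 fell, Pou5f1, Sox2 and Nanog among them, and 2 rose. That setting called 30.1% of all probe sets. Of 14 endoderm markers 5 rose and none fell, but after median centring 1 rose and 1 fell. Of 9 neural markers 1 rose and 3 fell. The shares called were 16.7% of the pluripotency, 35.7% of the endoderm and 44.4% of the neural markers, against 11.3% of all probe sets.

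**Figure D4:**
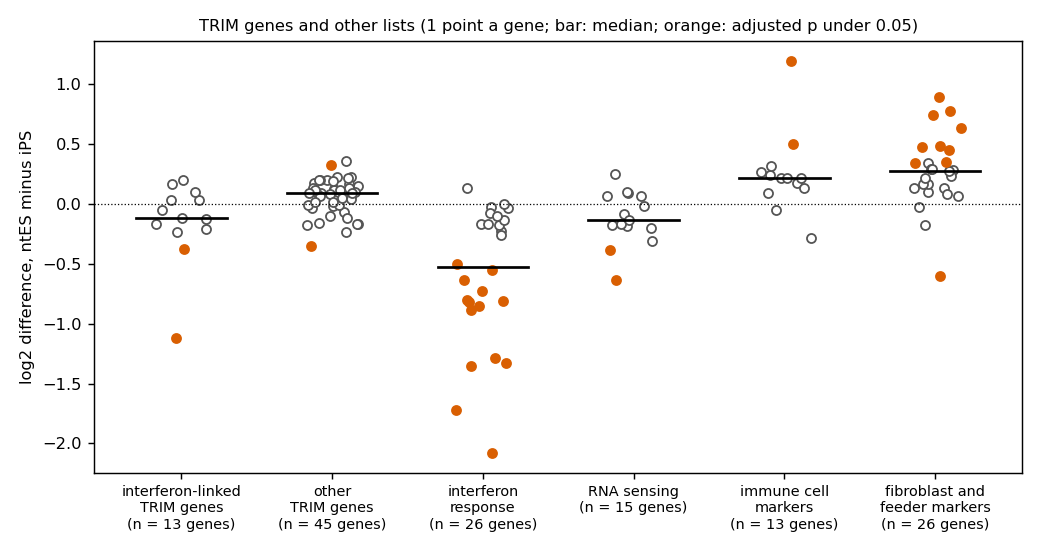
Log2 difference (ntES minus iPS) of each measured gene in 6 groups, with the median as a bar and genes with an adjusted p under 0.05 in orange. The 13 interferon-linked TRIM genes have a median of -0.12 and the 26 interferon response genes one of -0.53, while the fibroblast and feeder markers have a median of 0.27.

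None of the 4 chromatin corepressors passed limma's test, nor did any at an unadjusted p under 0.05 or by the unmoderated test. Trim28, the scaffold through which KRAB zinc finger proteins silence retroelements, read 11.88, 11.92 and 11.63 in iPS cells and 11.74, 11.93 and 12.11 in ntES cells. The groups overlapped, and the difference was 0.12 ± 0.11 (SE; 95% interval -0.13 to 0.37; adjusted p = 0.567, limma). Trim24, a coregulator of nuclear receptors, read 10.44, 10.49 and 10.36 in iPS cells and 10.05, 10.30 and 10.42 in ntES cells. Its ntES range reached into the iPS range, and the difference of -0.17 ± 0.10 (SE) did not pass (adjusted p = 0.337). Trim33, which acts on Smad4 in Nodal and TGF-beta signalling, differed by -0.02 (95% interval -0.25 to 0.21), and Trim66 by 0.05 (-0.13 to 0.24).

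The partners of Trim28 in silencing were also without a call. Of 15 measured, none rose or fell by limma, with differences from -0.40 to 0.30. At an unadjusted p under 0.05 there were 3, against 24.6% of all probe sets. After quantile normalization 4 of these 15 rose and 4 fell, while 30.1% of all probe sets were called. With median centring the heterochromatin protein gene Cbx3 was called lower, a gene named after its values were seen.

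The 4 NHL-repeat genes also passed no test, by limma adjusted or unadjusted or by the unmoderated test. Trim71, a repressor of mRNAs in stem cells and a classical target of let-7, read 10.17, 10.16 and 10.05 in iPS cells and 10.05, 10.09 and 10.27 in ntES cells. Its groups overlapped, with a difference of 0.01 ± 0.09 (SE; 95% interval -0.18 to 0.21; adjusted p = 0.945). Trim32, a ligase known from muscle and neural progenitors, read 7.63, 7.68 and 7.52 in iPS cells and 7.70, 7.69 and 7.88 in ntES cells. Its arrays did not overlap by a narrow margin, and its difference of 0.15 had an adjusted p of 0.336. The difference of Trim2 was 0.10 (adjusted p = 0.48) and that of Trim3 0.09 (adjusted p = 0.564), both genes known from neurons.

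Of 14 measured genes listed as partners of the NHL-repeat genes or for let-7 control, 3 fell and none rose (21.4% called, against 11.3% of all probe sets). After quantile normalization, with 30.1% of all probe sets called, 4 of these 14 fell and 3 rose. Those that rose were Ago2, Ago3 and Tut7, named after their values were seen. Lin28b, which blocks let-7 maturation, changed by -0.70 (adjusted p = 0.000381), the immediate-early transcription factor Egr1 by -0.68 and the microRNA-processing nuclease Dicer1 by -0.45, whereas Lin28a differed by 0.11 (adjusted p = 0.442).

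Among 13 measured TRIM genes of signalling, trafficking and organelles, Trim16 rose and none fell (7.69% called, against 11.3% of all probe sets). Trim16 lacks a RING finger and is known for its part in the response to damaged lysosomes and oxidative stress. It read 7.63, 7.57 and 7.63 in iPS cells and 7.84, 7.95 and 7.98 in ntES cells. All ntES arrays of Trim16 were above all iPS arrays, and the mean rose from 7.61 ± 0.03 to 7.93 ± 0.08 (SD, n = 3 each). The difference was 0.32 ± 0.08 (SE; adjusted p = 0.0274, limma). It passed in 8 of 15 alternatives. Those where it did not included median centring (0.26, adjusted p = 0.0613), the unmoderated test (0.0615) and the fits without iPS replicate 1 (0.104), 2 (0.153) or 3 (0.0707) or ntES replicate 2 (0.159).

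Trim13, a ligase anchored in the endoplasmic reticulum, had the largest positive difference of the family without a call. It read 10.72, 10.83 and 10.59 in iPS cells and 10.86, 11.06 and 11.30 in ntES cells. The groups of Trim13 did not overlap, but the ntES arrays spread widely, and the difference of 0.36 ± 0.12 (SE; 95% interval 0.10 to 0.62) had an adjusted p of 0.0755. Quantile normalization made it a call (0.39, adjusted p = 0.000268). Leaving out ntES replicate 1 did so too (0.47, adjusted p = 0.0142), as did leaving out both arrays of narrowest spread, iPS replicate 3 and ntES replicate 1 (0.41, adjusted p = 0.0217).

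The differences of Trim59, a membrane-anchored ligase, Trim41 and Trim23, which carries an ARF GTPase domain, were -0.24, -0.18 and -0.17, with adjusted p of 0.304, 0.244 and 0.373. Trim37, known from peroxisomes and centrosomes, differed by -0.12 (adjusted p = 0.488). Trim11 read 8.63 to 8.72 in iPS and 8.45 to 8.59 in ntES cells. Those arrays did not overlap, with a difference of -0.16 and an adjusted p of 0.234. Trim62 did not overlap either, at 7.40 to 7.48 in iPS and 7.51 to 7.60 in ntES cells, with a difference of 0.13 (adjusted p = 0.336). The remaining members of this group, Trim8, Trim27, Trim39, Trim44 and Trim45, differed by -0.04, -0.07, 0.10, 0.08 and -0.01.

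Trim35, a ligase first described in blood cell differentiation, was the bright member that fell. It read 9.80, 9.68 and 9.57 in iPS cells and 9.19, 9.34 and 9.47 in ntES cells. The highest ntES array stayed below the lowest iPS array. The difference was -0.35 ± 0.10 (SE, n = 3 each; adjusted p = 0.0454, limma), close to the threshold. Settings that ended the call included leaving out iPS replicate 1 (0.211), 2 (0.166) or 3 (0.0514), leaving out ntES replicate 1 (0.0893) or 2 (0.174), and the unmoderated test (0.195). Of the 20 measured genes within 10 places of Trim35, 4 fell and 2 rose, while 11.3% of all probe sets were called in either direction. The differences of these 20 ran from -0.83 to 0.56, with a median of 0.00.

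The 9 TRIM genes of the cytoskeleton and of muscle had no call by limma, and 8 of them lay above 0, with a median of 0.11. Their mean signals, 6.49 to 7.37, were below the median probe set of 7.66, and 71.4% of all probe sets below it lay above 0. At an unadjusted p under 0.05 there was 1, Trim54, against 24.6% of all probe sets. Trim54, a sarcomere protein, had the largest difference among them, with 7.07, 7.10 and 7.27 in iPS cells and 7.42, 7.41 and 7.26 in ntES cells. Its groups overlapped at 1 array of each, and the difference of 0.22 ± 0.09 (SE) did not pass (adjusted p = 0.163), though it did without ntES replicate 3 (0.27, adjusted p = 0.0484). Trim63, a ligase of muscle wasting, and its relative Trim55 differed by 0.16 and 0.01, and Trim9 and Trim67, known from axons, by 0.20 and 0.21, none past the test. After quantile normalization 6 of the 9 lay above 0, with a median of 0.03. Of 12 muscle markers 3 rose and none fell (25% called, against 11.3% of all probe sets), among them Des by 0.74 and Acta1 by 0.48.

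Of 7 TRIM genes listed for the early embryo and germ line, only Trim69 and Trim75 were measured as members, with differences of 0.13 and 0.04 and adjusted p of 0.432 and 0.777. Trim75 was lower in ntES cells after quantile normalization (-0.03) and median centring (-0.02), with no call. Of 18 genes listed as marks of 2-cell-like cells, 8 were measured. Among these 8, 6 were called higher in ntES cells and none lower (75% called, against 11.3% of all probe sets), Zfp352 by 1.89.

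The other 12 members besides Trim35 that fit none of these roles had no call by limma, nor an unadjusted p under 0.05. They were Trim7, Trim10, Trim15, Trim29, Trim31, Trim40, Trim47, Trim50, Trim52, Trim58, Trim68 and Trim80. Trim50, a stomach-enriched ligase, had the largest difference of the 12, at 0.22 ± 0.12 (SE; adjusted p = 0.292). It read 6.52, 6.66 and 6.78 in iPS cells and 7.01, 6.97 and 6.62 in ntES cells, so that 1 ntES array lay within the iPS range. Trim50 and Trim52 passed without ntES replicate 3, at 0.34 and 0.27 (adjusted p = 0.0289 and 0.0393). Trim7 was the lowest of the 12, at -0.10.

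Proteins of the TRIM architecture that carry other names were read as well. Of 9 such genes measured, Mid1 fell and Mid2 rose (22.2% called, against 11.3% of all probe sets). Mid1, a microtubule-associated ligase, read 10.62, 10.61 and 10.32 in iPS cells and 9.69, 9.87 and 10.05 in ntES cells. The groups of Mid1 did not overlap, with a difference of -0.65 ± 0.11 (SE; adjusted p = 0.00531, limma). Its close relative Mid2 read 7.36, 7.18 and 7.17 in iPS cells and 7.49, 7.56 and 7.61 in ntES cells, a difference of 0.32 ± 0.09 (SE; adjusted p = 0.0376) in the other direction. After median centring Mid2 was not called, and 2 of the 9 fell, Mid1 and Pml. Pml, the organiser of nuclear bodies and itself interferon-inducible, missed the threshold at -0.38 ± 0.11 (SE; adjusted p = 0.0509) and is named here after its values were seen.

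Counting all 58 members, the 4 called ones included, dim members lay above 0 more often than bright ones. The dim called members, Trim30a and Trim30d, lay below 0, against this trend. Of the 35 members below the median probe set of 7.66, 26 lay above 0 (74.3%), and of the 23 at or above it 11 did (47.8%). Over all probe sets the same shares were 71.4% and 46.5%, so the family followed the array. The arrays differed in spread: their SD over probe sets was lowest on ntES replicate 1 (1.51) and iPS replicate 3 (1.59) and highest on ntES replicate 3 (1.74). On ntES replicate 1 the median bright member deviated by -0.12 from its own mean and the median dim member by 0.12, and on ntES replicate 3 by 0.13 and -0.08. After quantile normalization 18 of the 35 dim members lay above 0, with a median of 0.01, and 13 of the 23 bright members. Quantile normalization also raised the members called to 8, with Trim13 higher and Trim14, Trim25 and Trim34a lower in addition to the 4, while all probe sets called rose to 30.1%. The array of ntES replicate 2 lay between the other ntES arrays for 46 of the 58 members and for 17504 of the 23344 probe sets.

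**Figure D5:**
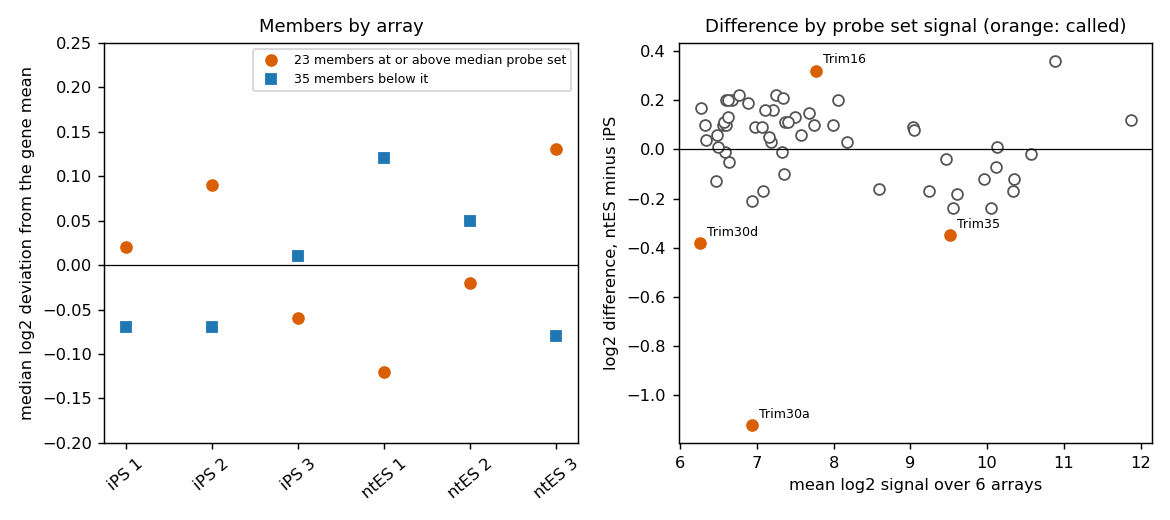
Left, median log2 deviation of bright and dim TRIM genes from each gene's mean over 6 arrays, by array. Right, log2 difference (ntES minus iPS) of each TRIM gene against its mean log2 signal, with the called genes in orange. Bright and dim members deviate in opposite directions on ntES replicate 1 (-0.12 and 0.12) and ntES replicate 3 (0.13 and -0.08).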

How the data were processed

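RNA was labelled with biotin (WT Terminal Labeling Kit) and read on Affymetrix arrays with GCOS 1.4, per the submitters' processing notes and the labels' protocols. The deposited values of 23344 probe sets were on a log2 scale, taken from their range of 3.6 to 13.7. For background correction, normalization, probe set summary and build, the sources used here name nothing. Array medians were 7.61 to 7.70, and the number of arrays limits the precision. The platform annotation gave 1 symbol for 20746 probe sets, several for 1183, and did not list 1415. No gene was named from several symbols, which left Trim5, Trim43a, Trim43b and Trim43c not analysed here.

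A linear model of ntES minus iPS covered every probe set, in limma 3.58.1 (R 4.3.3; lmFit, eBayes, Benjamini-Hochberg adjustment, no covariates), tested on simulated data. Adjusted p values are limma's and two-sided, and intervals come from its moderated SE. The text names called members, the 6 highest and 6 lowest uncalled differences, fixed genes, the 5 highest and 5 lowest signals, and up to 4 called genes a list, with other members named for completeness. Members and lists were chosen with earlier results of these data known. Alternatives were quantile normalization, median centring, filters on dim or unnamed probe sets, a variance trend with robust prior, array weights, a replicate block, an unmoderated test, a threshold of 0.01, means over probe sets, and leaving out each replicate, or the 2 arrays of narrowest spread (chosen after seeing the data). GRCm38.p6 served for gene order and promoters. Figures used Python 3.11.15 and matplotlib 3.10.9.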

Additional observations from a re-analysis of the deposited data

How the results depend on the processing

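The count of 4 called TRIM genes was 3 with median centring (0 higher and 3 lower, with 11.7% of all probe sets called). It was also 3 without dim probe sets (43 members tested, 15.9% of all tested called). With 1-symbol probe sets (12%), means over probe sets (11.5%) and a variance trend (15.9%) it stayed at 4. Without the 2 arrays of narrowest spread it was 5 (12.8%). It was 8 after quantile normalization (30.1% of all probe sets called) and 1 with an adjusted p under 0.01 (4.93%). The unmoderated test called 0 members and still called 703 of all probe sets (3.01%). Leaving out each replicate gave 1 to 10 calls, and the share of all probe sets called moved as well. There was 1 call without iPS replicate 1 (4.86% of all probe sets), iPS replicate 2 (4.46%) or ntES replicate 2 (4.34%). There were 2 calls without iPS replicate 3 (8.38%), 4 without ntES replicate 1 (12.6%) and 10 without ntES replicate 3 (21.6%). Over all probe sets median centring split the calls into 823 higher and 1911 lower, from 1212 and 1431. With the replicate block 1 member was called, Trim30a, and 1983 probe sets, while Trim30d, Trim35 and Trim16 had adjusted p of 0.0626, 0.0938 and 0.143. Deviations of same-numbered arrays correlated at -0.431, -0.103 and -0.721. Those of iPS replicate 3 and ntES replicate 1, the 2 arrays of narrowest spread, correlated at 0.692. Because the spread of the arrays enters these correlations, they cannot decide whether the numbers pair the samples. Array weights could not be fitted: the estimate did not converge and gave ntES replicate 2 a weight of 1354.

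Of 474 values of 32 named members, 428 kept direction and side of the threshold, 20 lost a call, 10 gained a call and 16 changed sign, none of the last past the threshold. Median centring turned Trim66 to -0.00, Trim71 to -0.04, Trim21 to -0.02, Trim26 to -0.03 and Trim75 to -0.02. Quantile normalization turned Trim33 to 0.02, Trim66 to -0.04, Trim21 to -0.07 and Trim75 to -0.03. Trim33 was at 0.01 without the 2 arrays of narrowest spread. Leaving out each replicate gave ranges across 0, from -0.10 to 0.07 for Trim33, -0.05 to 0.06 for Trim71, -0.03 to 0.21 for Trim38 and -0.01 to 0.05 for Trim26, with Trim33 turned to 0.03 (iPS 2) and 0.07 (ntES 1), Trim71 to -0.03 (iPS 3) and -0.05 (ntES 3), Trim38 by ntES 1 and Trim26 by ntES 3. The cause was not tested.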

Other observations

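The platform annotation gave several symbols, at least 1 of them a TRIM gene, to 6 probe sets, which stand for no single gene. None of the 6 was called. Probe set 10587659, which carries 3 symbols, read 6.03 to 6.11 in iPS and 6.11 to 6.19 in ntES cells, a difference of 0.06 ± 0.08 (log2, SE; adjusted p = 0.675, limma). Probe set 10566333, also with 3 symbols, had the largest difference of the 6, at -0.19 ± 0.10 (adjusted p = 0.249).

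Of the 58 TRIM genes, 12 held the same value, to 6 decimals, on at least 2 arrays (20.7%, against 20% of all probe sets). Trim21 had only 3 distinct values, with 4 of the 6 arrays at 1 value.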
